A study of Mus musculus with 64 samples.

Results

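The ER unfolded protein response genes examined here are Hspa5, Hsp90b1, Calr, Pdia4, Sdf2l1, Manf, Dnajb9, Herpud1, Edem1 and Xbp1. They were chosen by gene symbol, all 10 were found among the 45708 rows of the gene count table, and all 10 passed the filter on low counts that left 18413 genes for testing. Microglia, the resident macrophages of the brain, were sorted from mouse brain by CD11b and CD45.2 and profiled by stranded total RNA-seq in 64 libraries. The genotypes are RISP KO, RISP Het and RISP WT. RISP is the Rieske iron-sulfur protein of respiratory complex III, encoded by Uqcrfs1.

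Adult mice were left naive (13 KO, 13 Het and 5 WT libraries), given the demyelinating copper chelator cuprizone (6 KO and 4 Het), or given PLX3397, an inhibitor of the CSF1 receptor that removes microglia. PLX3397 samples were taken at depletion (2 KO, 2 Het and 4 WT) or after repopulation (4 KO, 4 Het and 4 WT). A further 3 naive Het libraries came from old mice. The labels state no other allele or agent, and the cell type or Cre driver of the deletion, doses, days, sex and any pooling are not given in the sources used here. Nothing says that the libraries of a group came from separate animals, so p-values measure the spread between these libraries, which may be technical.

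Proteins that enter the endoplasmic reticulum (ER) are folded there by chaperones such as BiP and by protein disulfide isomerases. When unfolded proteins build up, the sensors IRE1, ATF6 and PERK start the unfolded protein response: spliced XBP1 and cleaved ATF6 switch on chaperone and ER-associated degradation genes, and PERK phosphorylates eIF2alpha, which raises translation of ATF4. Failing mitochondria reach ATF4 by other eIF2alpha kinases, a route known as the integrated stress response, so that ATF4 targets can be switched on without the ER chaperone genes. The comparison of KO with Het or WT microglia sets these gene groups side by side.

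The libraries fall into sets that differ in depth and in the share of counts on 2 non-coding RNAs, Gm26917 and Yam1, and each genotype comparison was made inside 1 set. Naive libraries KO 1-5, Het 1-4 and WT 1-5 (naive 01-05), depletion and repopulation held at most 1% of such counts and totalled 9.32 to 16.27 megacounts (M). Naive KO 6-11 and Het 5-11 (naive 05-11) totalled 6.38 to 11.69 M, naive KO and Het 12 and 13 (naive 12-13) 15.93 to 19.67 M, and the cuprizone libraries 2.7 to 5.1 M counts. Uqcrfs1 was lower in KO in all of these comparisons, with log2 fold changes of -1.73 ± 0.24 (SE) to -4.0 ± 0.33 in edgeR's quasi-likelihood test, and KO cuprizone libraries had 0 to 1.47 counts per megacount of the library (CPM) against 10.3 to 12.9 CPM in Het. In naive 01-05, KO 1-4 and WT 1-4 stand apart from KO 5, Het 1-4 and WT 5 across all genes. Between KO 1-4 and Het 1-4, genotype and this subset cannot be told apart. The 6 microglial marker genes summed to 14670 to 47790 CPM in every group, far above any other cell type's list, of which oligodendrocyte genes reached the highest sum at 1851 CPM. In such bulk samples, fewer cells of a type and less RNA per cell cannot be told apart.

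Positions of the genes are given in GRCm38 (GENCODE M21). Hspa5 (ENSMUSG00000026864) is at chr2:34771970-34777547, Hsp90b1 (ENSMUSG00000020048) at chr10:86690209-86705509 and Calr (ENSMUSG00000003814) at chr8:84841850-84846934. Pdia4 (ENSMUSG00000025823) is at chr6:47796141-47813430, Sdf2l1 (ENSMUSG00000022769) at chr16:17130138-17132383 and Manf (ENSMUSG00000032575) at chr9:106838312-106891979. Dnajb9 (ENSMUSG00000014905) is at chr12:44205559-44210326, Herpud1 (ENSMUSG00000031770) at chr8:94386438-94395377, Edem1 (ENSMUSG00000030104) at chr6:108828641-108859356 and Xbp1 (ENSMUSG00000020484) at chr11:5520659-5525893. Manf overlaps 4 annotated genes, Hsp90b1 3, and Dnajb9, Herpud1 and Pdia4 1 each. Some of these are antisense, and whether the counting used strand is not given in the sources used here, so reads of such neighbours cannot be told apart from those of the members.

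The promoters of some members hold sequence elements through which the unfolded protein response is known to act. The ER stress element (ERSE) has the letters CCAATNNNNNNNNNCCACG, in ERSE-II 1 base lies between ATTGG and CCACG, and the C/EBP-ATF response element (CARE), which ATF4 binds, has TGATGNAA. The upstream stretches below are RefSeq promoter sequence in GRCm38.p6, written 5′ to 3′ on the gene's strand with the fixed letters of each match in capitals, and Asns, a classical ATF4 target, is shown for contrast.
Hspa5, chr2:34771940-34772089, plus strand: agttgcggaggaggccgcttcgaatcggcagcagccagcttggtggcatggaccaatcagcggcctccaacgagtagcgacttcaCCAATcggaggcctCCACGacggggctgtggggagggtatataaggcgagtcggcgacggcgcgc
Hsp90b1, chr10:86705505-86705674, minus strand: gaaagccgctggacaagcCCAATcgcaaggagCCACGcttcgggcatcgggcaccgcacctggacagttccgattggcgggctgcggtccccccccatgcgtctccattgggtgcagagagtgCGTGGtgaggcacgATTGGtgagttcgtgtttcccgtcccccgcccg
Calr, chr8:84846992-84847121, minus strand: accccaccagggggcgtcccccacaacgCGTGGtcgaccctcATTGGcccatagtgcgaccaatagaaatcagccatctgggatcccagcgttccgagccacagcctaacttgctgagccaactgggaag
Herpud1, chr8:94386279-94386428, plus strand: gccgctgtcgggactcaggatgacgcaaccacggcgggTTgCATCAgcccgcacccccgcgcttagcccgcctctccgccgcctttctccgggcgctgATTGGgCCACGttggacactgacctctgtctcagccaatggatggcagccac
Asns, chr6:7693210-7693319, minus strand: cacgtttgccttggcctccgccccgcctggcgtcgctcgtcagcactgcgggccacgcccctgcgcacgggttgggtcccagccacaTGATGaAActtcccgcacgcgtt

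The Hspa5 window holds 1 ERSE, at -65 to -47 from the RefSeq start site. The stretches of Hspa5 and Hsp90b1 overlap the GENCODE gene spans given above, so the start sites of RefSeq and GENCODE differ there. Hsp90b1 holds 2, at -212 and, on the opposite strand, at -107, and Calr holds 1 on the opposite strand at -162. Herpud1 holds an ERSE-II at -52 and, on the opposite strand, a CARE at -112. With both strands of 250 bases before to 50 after the start searched, 39 of 32851 RefSeq windows hold an ERSE (0.119%), 0.0365% an ERSE-II and 3.97% a CARE. ERSE and ERSE-II share the letters CCACG, and no member's window holds both. Among the members, 9 of 10 have a window, and ERSE was found in 3, ERSE-II in 1 and CARE in 1. Among 31 ATF4 and integrated stress response genes, 26 have a window, with CARE in 9 and ERSE in 0. These matches describe the letters only.

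Per kilobase of exon, Calr, the lectin chaperone calreticulin, had the highest level in naive WT microglia, with a median of 434.7 CPM per kb. Hsp90b1 (GRP94, the ER HSP90) followed at 207.5 and Hspa5 (BiP, the ER HSP70) at 191.2 CPM per kb. Sdf2l1, a partner of ER chaperones that keeps clients soluble, had 109.1, Pdia4, a protein disulfide isomerase, 99.4, and Herpud1, a membrane component of ER-associated degradation, 82.9 CPM per kb. Edem1, a lectin that sends misfolded glycoproteins to degradation, had 71.7 and Xbp1, the transcription factor, 53.2 CPM per kb. Manf, an ER resident survival factor, had 41.6 and Dnajb9 (ERdj4), a BiP cochaperone, 36.9 CPM per kb. The ranges over the 5 WT libraries overlapped between Hsp90b1 and Hspa5, Sdf2l1 and Pdia4, Pdia4 and Herpud1, Edem1 and Xbp1, and Manf and Dnajb9, but not between the other neighbours in this order.

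No ER chaperone or oxidoreductase among the members was called higher in KO microglia in any of the 8 comparisons with Het or WT. Among the ATF4 pathway genes, Atf5 and Mthfd2 were higher in all 8. Others were not: under cuprizone Trib3 was not called higher, and Atf4, Ddit3 and Ppp1r15a were lower. Ddit3 and Ppp1r15a were lower in naive 05-11 too. The members called (adjusted p under 0.05, edgeR's quasi-likelihood test with Benjamini-Hochberg adjustment over all genes) were lower, with the exception of Edem1, which was higher at repopulation. At repopulation and depletion the genes lower against both Het and WT were the folding factors Hsp90b1 and Pdia4, joined by Calr and Sdf2l1 at repopulation. In naive 01-05 Hsp90b1, Pdia4, Calr and Xbp1 were lower against Het, where most KO libraries also differ from Het in library subset. No member was called there against WT. In naive 05-11 and under cuprizone the lower genes were Hspa5, Dnajb9 and, under cuprizone, Herpud1, and in naive 12-13 Pdia4. The members' median log2 fold change was between -0.19 (naive 05-11) and -0.56 (depletion, KO against Het), and that of all genes tested between 0 and 0.03. KO against Het and KO against WT share their KO libraries and are not independent of each other.

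**Figure D1:**
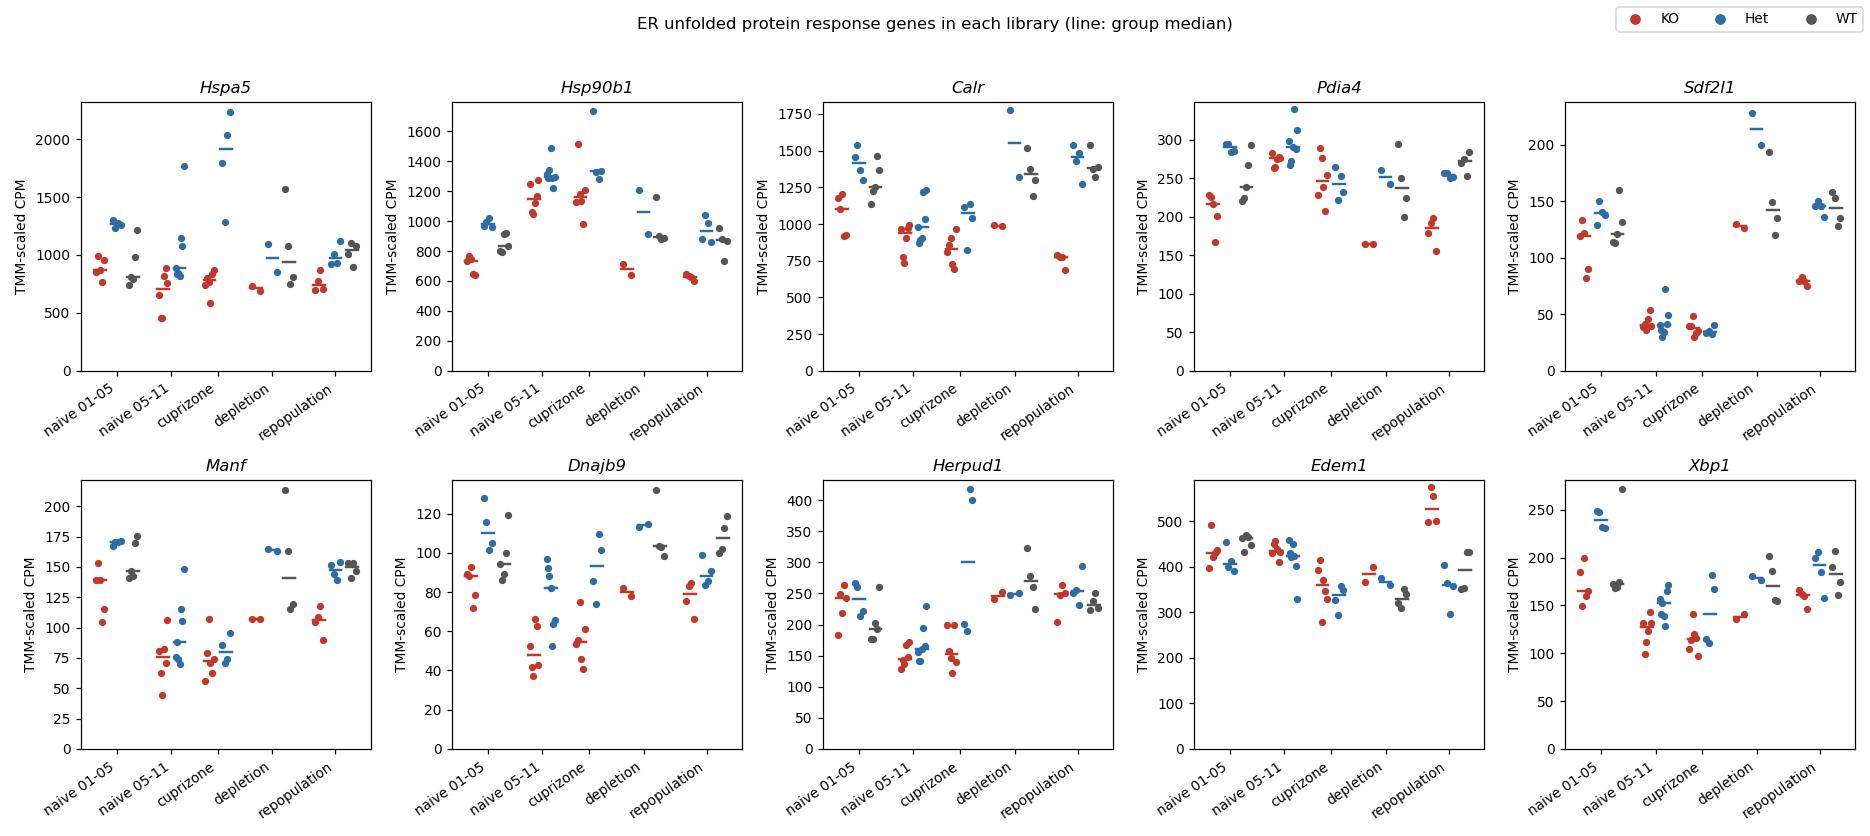
TMM-scaled CPM of each of the 10 genes (y axis, from 0) in every library of the 5 library sets (x axis), with KO left, Het next and WT right, and a line at each group's median. The 4 KO repopulation libraries sit at 684 to 792 CPM of Calr, below every Het and WT repopulation library, and the 6 KO cuprizone libraries at 589 to 871 CPM of Hspa5, below all 4 Het libraries.

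**Figure D2:**
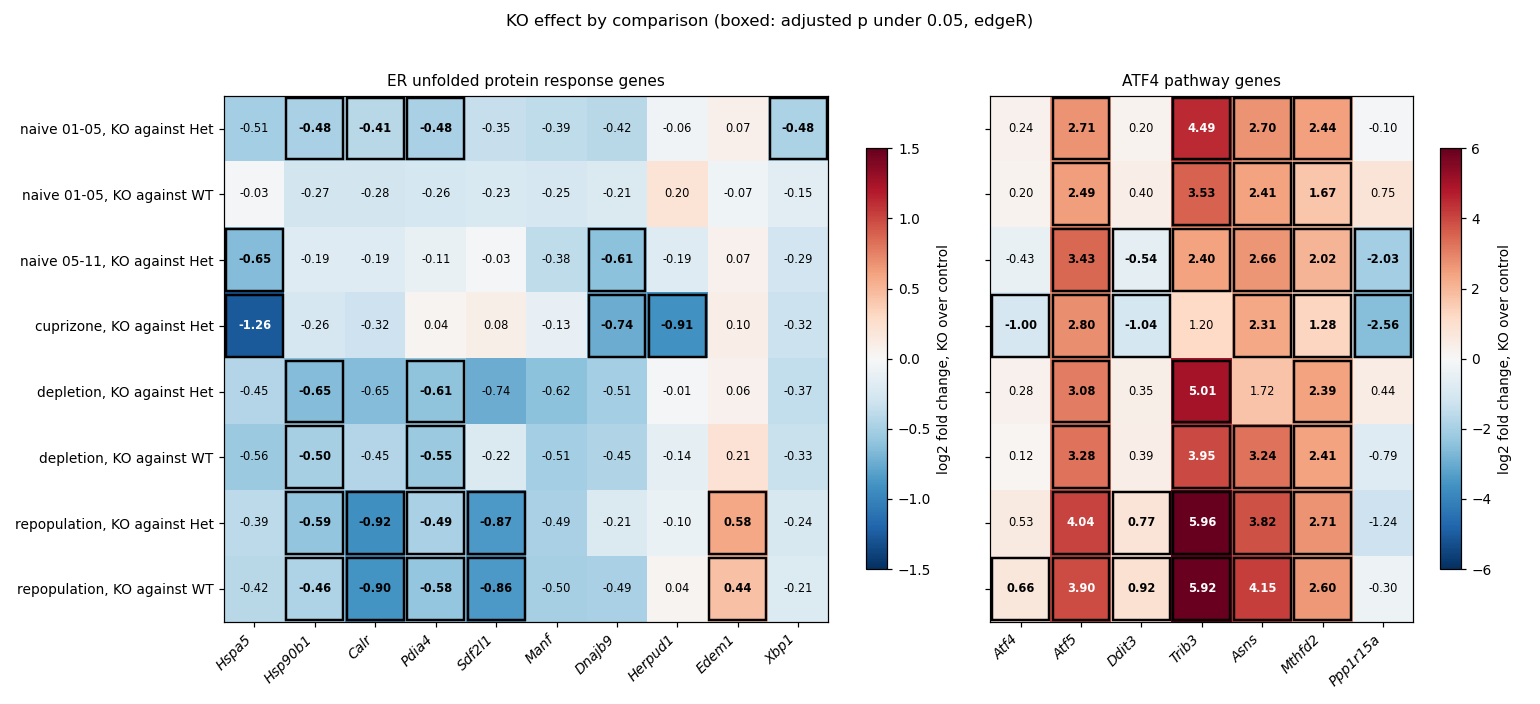
log2 fold change of KO over Het or WT (colour and printed value) for the 10 ER genes (left) and 7 ATF4 pathway genes (right, on a wider colour scale) in 8 comparisons (rows), with a box where edgeR's adjusted p is under 0.05. All boxed ER genes are negative other than Edem1 at repopulation (0.58 and 0.44), and Atf5 and Mthfd2 are positive and boxed in every row.

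Repopulated KO microglia had lower Calr, Sdf2l1, Hsp90b1 and Pdia4 and higher Edem1 than both Het and WT microglia. Calr had 792, 778, 773 and 684 CPM in KO, against 1540, 1430, 1481 and 1271 CPM in Het and 1537, 1377, 1323 and 1392 CPM in WT. Sdf2l1 had 79.8, 82.7, 79.1 and 75.5 CPM in KO, against 146, 150.2, 146 and 137 CPM in Het and 158, 153, 128 and 136 CPM in WT. For both genes every KO library lay below every Het and WT library, with a wide gap. The log2 fold change of Calr was -0.92 ± 0.13 (SE) against Het (adjusted p = 1.07e-06, edgeR) and -0.90 ± 0.13 against WT (adjusted p = 1.61e-06). That of Sdf2l1 was -0.87 ± 0.17 against Het (adjusted p = 0.000591, edgeR) and -0.86 ± 0.17 against WT (adjusted p = 0.000685).

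The disulfide isomerase Pdia4 and the client chaperone Hsp90b1 showed the same separation at repopulation. Pdia4 had 178, 191, 198 and 155 CPM in KO, against 257, 257, 250.4 and 251 CPM in Het and 269.9, 275, 253 and 284 CPM in WT. Hsp90b1 had 646, 630.3, 626 and 601 CPM in KO, against 878, 1038, 989 and 863 CPM in Het and 957, 883, 732 and 868 CPM in WT. No KO library reached the lowest Het or WT library in either gene. The log2 fold change of Pdia4 was -0.49 ± 0.10 against Het (adjusted p = 0.00114, edgeR) and -0.58 ± 0.10 against WT (adjusted p = 8.56e-05). That of Hsp90b1 was -0.59 ± 0.11 against Het (adjusted p = 0.000258, edgeR) and -0.46 ± 0.11 against WT (adjusted p = 0.0058).

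Edem1 went the other way. It had 498, 575, 555 and 501 CPM in KO, against 403, 364, 295 and 358 CPM in Het and 352, 354, 431 and 433 CPM in WT. All 4 KO libraries lay above all 8 others. Edem1 was higher by 0.58 ± 0.10 (log2) against Het (adjusted p = 3.41e-05, edgeR) and 0.44 ± 0.10 against WT (adjusted p = 0.00205).

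BiP itself was not called at repopulation. Hspa5 had 697, 772, 872 and 710.0 CPM in KO, against 921, 1011, 931 and 1125 CPM in Het and 1007, 1105, 898 and 1074 CPM in WT. Its KO libraries lay below all others, with a log2 fold change of -0.39 ± 0.20 against Het (adjusted p = 0.319, edgeR) and -0.42 ± 0.20 against WT (adjusted p = 0.264). Manf had 90.0 to 118 CPM in KO, against 139.5 to 154 CPM in Het libraries, and 141 to 154 CPM in those of WT, and its groups did not overlap either. Its log2 fold changes were -0.49 ± 0.19 against Het (adjusted p = 0.139, edgeR) and -0.50 ± 0.19 against WT (adjusted p = 0.124). Dnajb9 (-0.21 ± 0.16 and -0.49 ± 0.16 against Het and WT), Xbp1 (-0.24 ± 0.14 and -0.21 ± 0.14) and Herpud1 (-0.10 ± 0.17 and 0.04 ± 0.17) were not called.

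In all, 4 of 10 members were lower and 1 higher in KO against Het at repopulation, where 2.48% of all genes were called lower and 2.15% higher. Against WT the counts were again 4 and 1, beside 2.53% and 2.26% of all genes. The members' median log2 fold change was -0.44 against Het and -0.47 against WT, and that of all genes tested was 0 in both. KO libraries lay below every Het library in 6 of 10 members and below every WT library in 7, beside 7.09% of all genes in each comparison. They lay above in 1 member, beside 8.77% of all genes against Het and 8.55% against WT. Without any 1 library the count of members called stayed at 5 in both comparisons. Dissociation stress genes, immediate early genes that rise while a brain is taken apart, summed to 1985 to 7546 CPM in KO, against 3710 to 13800 CPM in Het libraries, and 2524 to 5569 CPM in those of WT. Of these 19 genes 2 were lower in KO than Het and 1 lower than WT, and their part in the result was not tested. Genes of B and plasma cells, which carry much ER, summed to 283 to 300.2 CPM in KO, 194 to 249 CPM in Het libraries, and 199 to 291 CPM in those of WT. Of the 8 such genes tested only Ighm was higher (0.42 ± 0.12 against Het, 0.43 ± 0.12 against WT), and of the 6 microglial markers Tmem119 was lower (-0.53 ± 0.13 and -0.69 ± 0.13). The 5 endothelial genes summed to 29.6 to 76.3 CPM in KO, against 72.3 to 169 CPM in Het libraries, and 91.1 to 162 CPM in those of WT. The sums of KO and WT did not overlap, all 5 fold changes were negative in both comparisons, and 1 gene, Cldn5, was called lower against WT (-1.67 ± 0.51, adjusted p = 0.0449, edgeR). For all these genes, their part in the result was not tested. By Y-linked genes the sexes were unequal as well, with 3 males of 4 in KO, 1 of 4 in Het and 2 of 4 in WT.

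**Figure D3:**
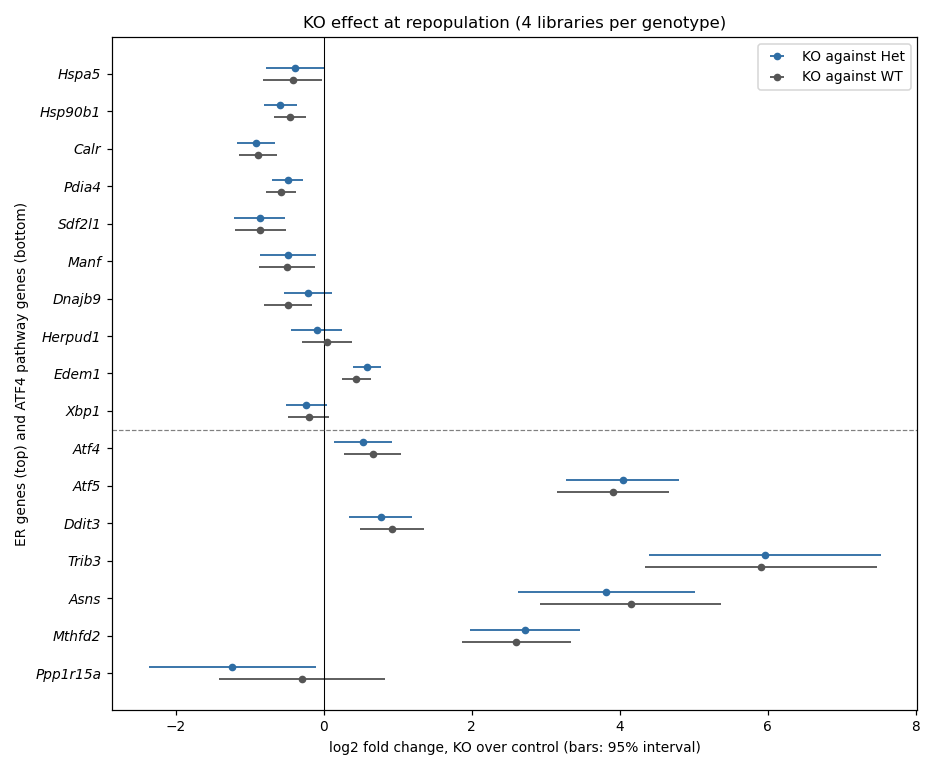
log2 fold changes (x axis) with 95% intervals (bars) of the 10 ER genes (above the dashed line) and 7 ATF4 pathway genes (below it) at repopulation, KO against Het in blue and KO against WT in grey, 4 libraries per genotype. Calr (-0.92 and -0.90) and Sdf2l1 (-0.87 and -0.86) lie farthest to the left among the ER genes, while Atf5 (4.04 and 3.90) lies on the other side of 0.

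At depletion, with 2 KO and 2 Het libraries, Pdia4 and Hsp90b1 were lower in KO than in Het and WT. Pdia4 had 165.1 and 164 CPM in KO, against 260.0 and 242 CPM in Het and 294, 249.6, 199 and 224 CPM in WT. Hsp90b1 had 716 and 639 CPM in KO, against 1208 and 913 CPM in Het and 1164, 899.5, 878 and 886 CPM in WT. The KO libraries lay below all Het and WT libraries for both genes. The log2 fold change of Pdia4 was -0.61 ± 0.14 against Het (adjusted p = 0.033, edgeR) and -0.55 ± 0.13 against WT (adjusted p = 0.00829). That of Hsp90b1 was -0.65 ± 0.15 against Het (adjusted p = 0.0346, edgeR) and -0.50 ± 0.14 against WT (adjusted p = 0.0418).

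The other members were not called at depletion. Calr had 991 and 987 CPM in KO, against 1777 and 1321 CPM in Het and 1516, 1378, 1193 and 1300.0 CPM in WT, with a log2 fold change of -0.65 ± 0.18 against Het (adjusted p = 0.0856, edgeR) and -0.45 ± 0.16 against WT (adjusted p = 0.18). Sdf2l1 had 130.3 and 126 CPM in KO, against 228 and 199.7 CPM in Het and 194, 149.6, 120 and 135 CPM in WT, so that KO overlapped WT but not Het. Its log2 fold changes were -0.74 ± 0.24 against Het (adjusted p = 0.187, edgeR) and -0.22 ± 0.21 against WT. KO libraries lay below every Het library in 8 of 10 members, and below every WT library in 7. The share of all genes with that order was 16.4% against Het and 8.89% against WT.

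Called members numbered 2 lower in each depletion comparison, where 0.293% (KO against Het) and 0.516% (KO against WT) of all genes were called lower. None was called higher, beside 0.217% and 1.09% of all genes. The calls rest on few libraries: leaving out 1 library left 0 or 1 called member against Het and 0 to 2 against WT. Both calls were lost against Het without KO 1, KO 2 or Het 1 (Pdia4 also without Het 2), and against WT without KO 1, KO 2 or WT 1 (Hsp90b1 also without WT 2). The 6 microglial markers summed to 31180 and 31240 CPM in KO, against 38180 and 43440 CPM in Het and 37260 to 39680 CPM in WT. Neutrophil genes (5 listed) summed to 0 and 54.8 CPM in KO, against 0.846 and 3.83 CPM in Het and 0.241 to 3.03 CPM in WT, and monocyte genes (5 listed) to 8.995 and 56.5 CPM in KO, against 4.74 and 7.36 CPM in Het and 6.53 to 7.86 CPM in WT. Of these 10 genes only the monocyte gene Chil3 was called, higher against WT (6.41 ± 1.48, adjusted p = 0.00856, edgeR). The part of the microglial, neutrophil and monocyte genes in the result was not tested.

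In naive 01-05, Hsp90b1, Calr, Pdia4 and Xbp1 were lower in KO than Het, and no member was called against WT. Pdia4 had 228, 226, 216, 167 and 201 CPM in KO, against 295, 295, 284.5 and 286 CPM in Het and 220.0, 225, 238, 267 and 294 CPM in WT. Hsp90b1 had 734, 765, 746, 644 and 642 CPM in KO, against 967, 993, 1024 and 959.8 CPM in Het and 799, 793, 912, 920.3 and 837 CPM in WT. For Hsp90b1 the KO libraries lay below all Het and WT libraries, and for Pdia4 below Het only. The log2 fold change of Pdia4 was -0.48 ± 0.10 against Het (adjusted p = 0.00114, edgeR) and -0.26 ± 0.09 against WT (adjusted p = 0.161). That of Hsp90b1 was -0.48 ± 0.10 against Het (adjusted p = 0.00271, edgeR) and -0.27 ± 0.10 against WT (adjusted p = 0.184).

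Xbp1 had 186, 149, 199, 160.4 and 166 CPM in KO, against 249, 248, 232 and 231 CPM in Het and 173, 168, 169.7, 174 and 272 CPM in WT. KO lay below Het throughout and spanned 4 of the 5 WT libraries. The log2 fold change against Het was -0.48 ± 0.13 (adjusted p = 0.0223, edgeR), and that against WT was -0.15 ± 0.12 (adjusted p = 0.714). Calr had 1177, 1100, 1204, 916 and 923 CPM in KO, against 1460, 1538, 1365 and 1301 CPM in Het and 1136, 1226, 1252, 1462 and 1366 CPM in WT, with log2 fold changes of -0.41 ± 0.12 against Het (adjusted p = 0.0434, edgeR) and -0.28 ± 0.11 against WT (adjusted p = 0.288). Hspa5 had 852, 995, 870.3, 765 and 961 CPM in KO, against 1299, 1231, 1279 and 1256 CPM in Het and 742, 809, 791, 982 and 1214 CPM in WT. For both genes KO lay below Het and overlapped WT. Hspa5 was not called, at -0.51 ± 0.19 against Het (adjusted p = 0.152, edgeR) and -0.03 ± 0.18 against WT (adjusted p = 1).

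Called members were 4 of 10 lower against Het, beside 1.25% of all genes, and 0 of 10 against WT, beside 0.787%, with 3 members at an unadjusted p under 0.05 and 2 called by DESeq2. None was called higher, beside 1.48% and 1.15% of genes. KO libraries lay below every Het library in 7 of 10 members (4.11% of all genes) and below every WT library in 1 (1.69%). Calr and Xbp1 were not called without KO 2, 4 or 5 or without Het 1 or 2, and Calr not without Het 3. KO 1-4 and Het 1-4 lie in different library subsets, so genotype and subset cannot be told apart in the calls against Het. Only KO 5 shares its library subset with Het 1-4: between these, Pdia4 differed by -0.53 ± 0.16 (adjusted p = 0.207, edgeR), Hsp90b1 by -0.62 ± 0.18 (adjusted p = 0.168), and no member was called. In the other subset, KO 1-4 against WT 1-4, Pdia4 differed by -0.18 ± 0.10 (adjusted p = 0.607, edgeR), Hsp90b1 by -0.24 ± 0.11 (adjusted p = 0.443), and no member was called. The border macrophage genes summed to 143 to 477 CPM in KO, against 432 to 676 CPM in Het libraries, and 445 to 1023 CPM in those of WT. Endothelial genes all had negative log2 fold changes (-0.97 to -1.37 against Het, -0.86 to -1.30 against WT), with none called. Against WT the monocyte gene Ccr2 (-1.83 ± 0.47, adjusted p = 0.0206, edgeR) and the neuronal gene Snap25 (-2.70 ± 0.71, adjusted p = 0.0289) were lower. The part of all these genes in the result was not tested. Sexes, read from Y-linked genes, were unequal too, with 4 males of 5 in KO, 1 of 4 in Het and 5 of 5 in WT, and with sex in the fit 2 members were called against Het.

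In naive 05-11, BiP and its cochaperone Dnajb9 were lower in KO, and the other chaperones were not called. Hspa5 ran from 458 CPM over a median of 706 to 886 CPM in the 6 KO libraries, against 819, 889 and 1765 CPM in the 7 Het libraries. Dnajb9 ran from 37.0 over 47.7 to 66.4 CPM in KO, against 52.6, 81.9 and 96.8 CPM in Het. The groups overlapped for both genes. Dnajb9 was apart in the lower-numbered libraries, with 52.5, 41.9 and 37.0 CPM in KO 6-8 and 81.9 to 96.8 CPM in Het 5-8. In the rest it overlapped, with 66.4, 62.6 and 43.0 CPM in KO 9-11 and 52.6, 63.8 and 65.9 CPM in Het 9-11. Hspa5 was lower in both parts, also in KO 9-11 (821, 886 and 760 CPM) than in Het 9-11 (1143, 1081 and 1765 CPM). This division was made after the values were seen and was not tested. Hspa5 changed by -0.65 ± 0.16 (adjusted p = 0.00308, edgeR) on the log2 scale and Dnajb9 by -0.61 ± 0.13 (adjusted p = 0.000666).

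Values of the members lower in the other sets were closer to 0 here. Pdia4 ran from 264 over 276 to 283 CPM in KO, against 268, 290.3 and 340 CPM in Het (log2 fold change -0.11 ± 0.08, adjusted p = 0.395, edgeR). Calr differed by -0.19 ± 0.10 (adjusted p = 0.202), Hsp90b1 by -0.19 ± 0.09 (adjusted p = 0.129) and Sdf2l1 by -0.03 ± 0.14. The difference from the naive 01-05 effect was tested for each gene and passed for none, the nearest being Pdia4 at 0.37 ± 0.13 (adjusted p = 0.176, edgeR). Called members were 2 of 10 lower, beside 6.07% of all genes, and 0 higher, beside 7.68%.

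In the same naive 05-11 libraries 18 of 19 dissociation stress genes were lower in KO, among them the immediate early factors Klf6 (-1.60 ± 0.21) and Klf4 (-3.11 ± 0.42). Their sum was 1570 to 3977 CPM in KO, against 5653 to 14400 CPM in Het, with no overlap. Hspa5 and Dnajb9 were lower in KO as well. Among the Het libraries, Het 10 and 11 (sums of 5653 and 9303 CPM) had 1081 and 1765 CPM of Hspa5, and Het 9 (14400 CPM) had 1143 CPM. Het 5 to 8 (12090 to 12910 CPM) had 819 to 889 CPM. Dnajb9 was lowest in Het 9 (52.6 CPM), which had the highest sum. It was also lower in Het 10 and 11 (63.8 and 65.9 CPM) than in Het 5 to 8 (81.9 to 96.8 CPM). The part of the dissociation stress genes in the result was not tested. Naive libraries 12 and 13 gave a different member: Pdia4 had 338 and 405 CPM in KO, against 583 and 587 CPM in Het, a log2 fold change of -0.66 ± 0.14 (adjusted p = 0.0153, edgeR). It was the 1 member called there, beside 0.223% of all genes called lower, and Calr had 1435 and 1748 CPM in KO, against 2497 and 2527 CPM in Het (-0.66 ± 0.18, adjusted p = 0.0717).

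Under cuprizone, Hspa5, Herpud1 and Dnajb9 were lower in KO than Het, while Calr, Pdia4, Sdf2l1 and Hsp90b1 were not called. Hspa5 had 737, 799, 771, 589, 835 and 871 CPM in KO (lowest 589, median 785, highest 871), against 1796, 1288, 2039 and 2233 CPM in Het. Herpud1 had 199.6, 157, 147, 122, 199 and 140.4 CPM in KO, against 201, 189.7, 417 and 399 CPM in Het. Dnajb9 had 53.4, 55.5, 74.9, 46.1, 40.9 and 61.2 CPM in KO, against 85.7, 74.0, 109.5 and 101 CPM in Het. The groups stood apart for Hspa5, while 2 KO libraries overlapped Het for Herpud1 and 1 for Dnajb9. The share of all genes with every KO library below every Het library was 3.8%. In Herpud1, Het 3 and 4 were far above Het 1 and 2.

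The log2 fold change of Hspa5 was -1.26 ± 0.18 (adjusted p = 7.93e-07, edgeR), the largest of any member in the 8 comparisons. That of Herpud1 was -0.91 ± 0.15 (adjusted p = 2.01e-05) and that of Dnajb9 -0.74 ± 0.15 (adjusted p = 0.000271). Sdf2l1 had 29.8 to 48.1 CPM in KO, against 32.7 to 40.2 CPM in Het (0.08 ± 0.17, adjusted p = 0.83, edgeR), and Pdia4 had 208 to 289 CPM in KO, against 222 to 264 CPM in Het (0.04 ± 0.09, adjusted p = 0.876). Calr had 694 to 964 CPM in KO, against 821 to 1136 CPM in Het (-0.32 ± 0.12, adjusted p = 0.0561, edgeR), and Hsp90b1 984 to 1512 CPM in KO, against 1282 to 1739 CPM in Het (-0.26 ± 0.10, adjusted p = 0.0788). Called members were 3 of 10 lower, beside 5.83% of all genes, and 0 higher, beside 8.16%.

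Of the dissociation stress genes 17 of 19 were lower in KO here as well. So were 8 of 13 cytosolic heat shock chaperones, such as Hsp90aa1 (-2.04 ± 0.21) and Hspb1 (-4.22 ± 0.57). The 19 genes summed to 1674 to 2342 CPM in KO 1-4 and to 12540 and 13500 CPM in KO 5 and 6, against 21520, 18260, 35700 and 45920 CPM in Het 1-4. KO 5 and 6, whose sums lay below every Het sum and above those of KO 1-4, had 835 and 871 CPM of Hspa5. KO 1-4 had 589 to 799 CPM of it. In Het 2, 1, 3 and 4, in order of rising sum, Hspa5 had 1288, 1796, 2039 and 2233 CPM. The part of the dissociation stress and heat shock genes in the result was not tested.

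The cuprizone libraries also divide by non-coding RNA share into KO 1-4 with Het 1 and 2 (over 3%) and KO 5 and 6 with Het 3 and 4 (under 3%), a split made after the values were seen. Hspa5 was lower within each, by -1.09 ± 0.23 (adjusted p = 0.000758, edgeR) over the limit and -1.32 ± 0.28 (adjusted p = 0.00369) under it. Herpud1 differed by -0.32 ± 0.17 (adjusted p = 0.24, edgeR) over the limit and -1.26 ± 0.20 (adjusted p = 5.45e-05) under it. Dnajb9 differed by -0.47 ± 0.20 (adjusted p = 0.112, edgeR) over it and -1.04 ± 0.23 (adjusted p = 0.00657) under it.

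**Figure D4:**
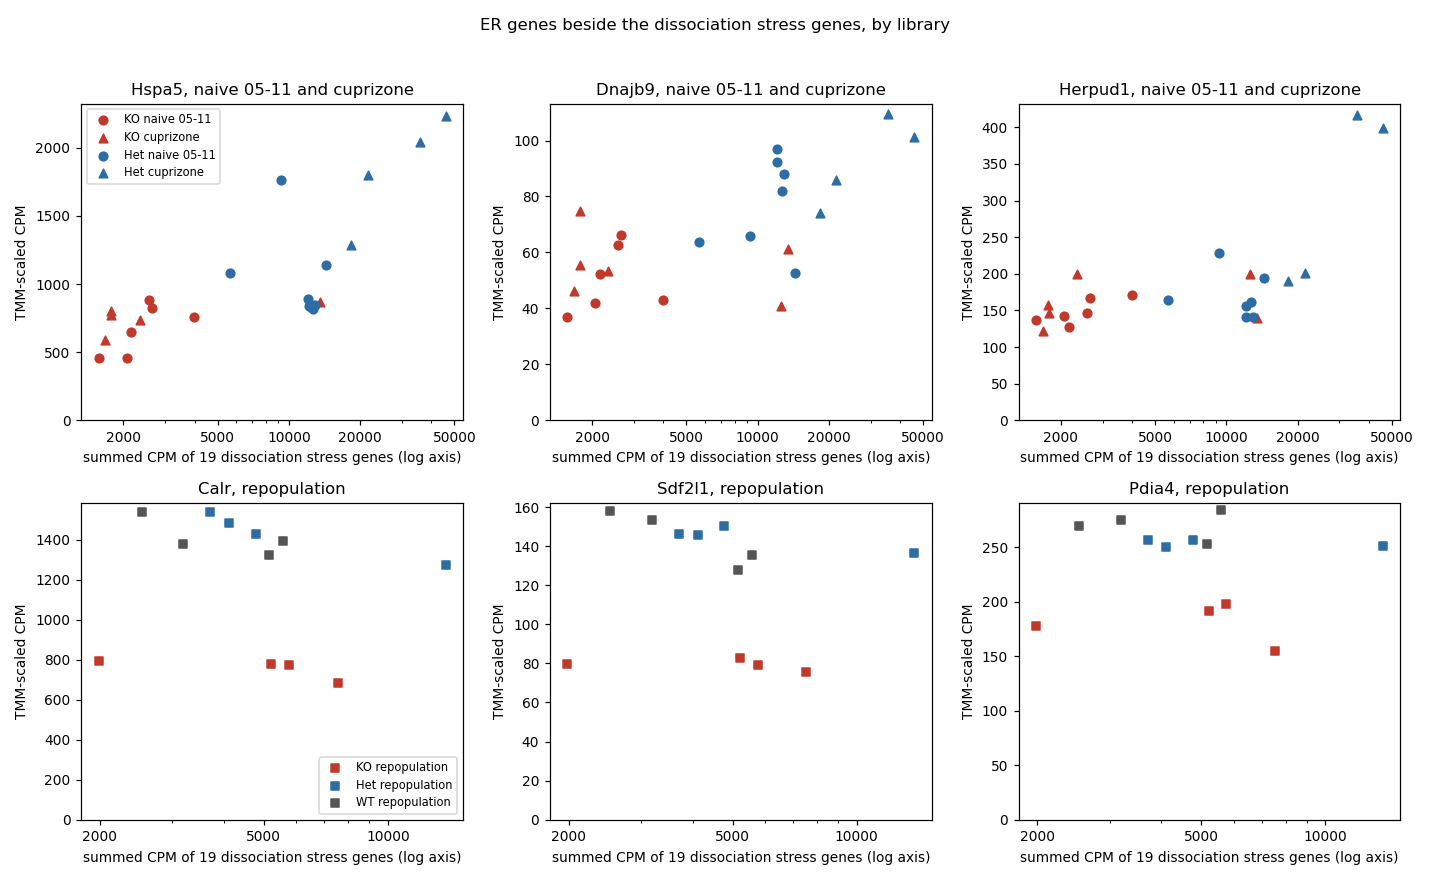
TMM-scaled CPM (y axes, from 0) of Hspa5, Dnajb9 and Herpud1 in naive 05-11 and cuprizone libraries (top) and of Calr, Sdf2l1 and Pdia4 in repopulation libraries (bottom), against the summed CPM of 19 dissociation stress genes (x axes, log scale), 1 point per library. In the top panels KO libraries of naive 05-11 lie at sums of 1570 to 3977 CPM and Het at 5653 to 14400 CPM, while in the bottom panels the KO libraries (sums 1985 to 7546 CPM) are low within the range of sums of the Het and WT libraries (2524 to 13800 CPM) as well as below it.

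The KO effects under cuprizone and at repopulation were compared directly, a contrast added after the values were seen. The effect of Sdf2l1 differed by 0.95 ± 0.24 (cuprizone minus repopulation, KO against Het, adjusted p = 0.0203, edgeR), that of Pdia4 by 0.53 ± 0.14 (adjusted p = 0.0285) and that of Edem1 by -0.48 ± 0.13 (adjusted p = 0.0339). These 3 of 10 stand beside 0.804% of all genes called lower and 0.831% called higher in this contrast. Calr (0.60 ± 0.17, adjusted p = 0.0532, edgeR), Herpud1 (-0.81 ± 0.23, adjusted p = 0.0532) and Hspa5 (-0.88 ± 0.27, adjusted p = 0.0783) did not pass. The conditions come from library sets of different depth, so condition and set cannot be told apart, and leaving out 1 library left 1 to 5 members called: Sdf2l1 each time, Pdia4 and Edem1 not each time. In the 4 other contrasts between conditions 0 members were called by edgeR, the nearest being Herpud1 in cuprizone minus naive 05-11 (-0.72 ± 0.21, adjusted p = 0.118) and Edem1 in repopulation minus naive 01-05 (KO against WT, 0.51 ± 0.13, adjusted p = 0.189). At an unadjusted p under 0.05 there were 2 members for naive 05-11 minus naive 01-05, 2 for cuprizone minus naive 05-11, 0 for depletion minus naive 01-05 and 4 for repopulation minus naive 01-05, and DESeq2 called 0, 1, 0 and 2 of them.

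**Figure D5:**
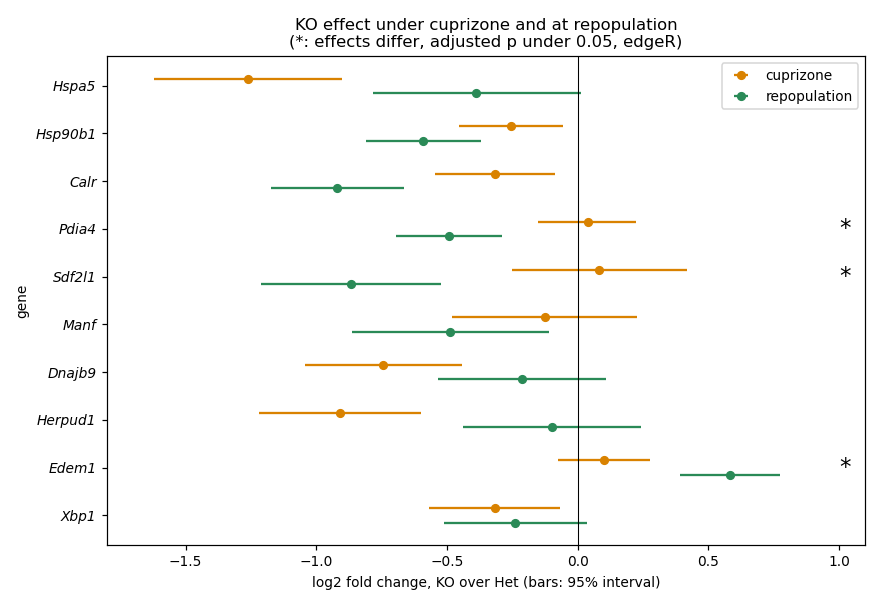
log2 fold change of KO over Het (x axis) with 95% intervals (bars) of the 10 ER genes under cuprizone (orange) and at repopulation (green), with an asterisk where the effects differ by edgeR's adjusted p under 0.05. Hspa5, Herpud1 and Dnajb9 lie farther left under cuprizone (-1.26, -0.91 and -0.74), and Calr, Sdf2l1 and Pdia4 at repopulation (-0.92, -0.87 and -0.49).

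Among the controls alone, no member was called between Het and WT by edgeR in naive 01-05, at depletion or at repopulation. At an unadjusted p under 0.05 there were 4 members in naive 01-05 (Hspa5, Hsp90b1, Xbp1 and Pdia4, all with higher values in Het), 1 at depletion and 0 at repopulation, and DESeq2 called 0 in each. In WT microglia Edem1 was lower at depletion (321, 309, 351 and 339 CPM) than naive (463, 432, 470.3, 466 and 447 CPM), at -0.47 ± 0.09 (adjusted p = 0.00085, edgeR), the 1 member called, beside 1.46% of all genes called lower. Between WT repopulation and WT naive microglia 0 members were called by edgeR or DESeq2, with 1, Edem1, at an unadjusted p under 0.05. In Het microglia under cuprizone, against Het naive 05-11, Hspa5 (0.80 ± 0.17, adjusted p = 0.00128, edgeR) and Herpud1 (0.83 ± 0.15, adjusted p = 0.000141) were higher, and Edem1 (-0.33 ± 0.09, adjusted p = 0.00972) and Pdia4 (-0.28 ± 0.09, adjusted p = 0.0382) lower, beside 3.48% of genes called higher and 5.76% lower. The median gene moved by -0.16 in that comparison, and the libraries differ in depth as well as treatment, which cannot be told apart.

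The ER stress sensors that start the response were mostly not called. Of Ern1 (IRE1), Eif2ak3 (PERK), Atf6, Atf6b and the proteases Mbtps1 and Mbtps2 that cleave ATF6, 0 of 6 were called by edgeR in naive 01-05, in naive 05-11 or at depletion, and at most 1 had an unadjusted p under 0.05 there. Mbtps1 was lower at repopulation, by -0.32 ± 0.09 against Het (adjusted p = 0.0172, edgeR) and -0.28 ± 0.09 against WT (adjusted p = 0.0454), and Mbtps2 was higher under cuprizone, by 0.80 ± 0.24 (adjusted p = 0.015).

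Of 23 other ER chaperones and oxidoreductases, 5 were lower and 1 higher at repopulation against Het (2.48% and 2.15% of all genes), and 6 lower and 1 higher against WT (2.53% and 2.26%). Pdia3, the disulfide isomerase that works with calreticulin, was lower by -0.71 ± 0.13 against Het (adjusted p = 0.000291, edgeR) and -0.75 ± 0.13 against WT (adjusted p = 0.00012). Pdia6, a further disulfide isomerase, was lower by -0.62 ± 0.12 and -0.58 ± 0.12, while Ero1l, the oxidase that recharges these enzymes, was higher by 0.68 ± 0.17 and 0.66 ± 0.17. Under cuprizone the counts ran the other way, with 6 higher, led by Ero1l (1.03 ± 0.17, adjusted p = 1.26e-05, edgeR), and 0 lower, beside 8.16% of all genes called higher and 5.83% lower. In naive 05-11 2 were higher and 0 lower, a share near the 7.68% of all genes called higher there. In naive 01-05 3 were lower against Het (1.25% of all genes) and 1 against WT (0.787%). At depletion 3 (Pdia6, Pdia3 and Cnpy2) were lower against Het (0.293% of all genes) and 1 against WT (0.516%), with 0 higher in either set.

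Genes of ER-associated degradation (20 listed) and of entry into the ER (22 listed) were called mainly under cuprizone. There 7 degradation genes were higher, led by Sel1l, the adaptor of the Hrd1 ligase (0.57 ± 0.10, adjusted p = 8.39e-05, edgeR), and 12 entry genes, led by Ssr1 of the translocon-associated protein complex (0.45 ± 0.07, adjusted p = 9.38e-06), with 0 lower, where 8.16% of all genes were called higher. In naive 05-11 5 degradation and 4 entry genes were higher, beside 7.68% of all genes. At repopulation Sel1l was higher against Het (0.59 ± 0.11, adjusted p = 0.000378, edgeR), like Edem1, and Edem2 was lower against WT, where 2.15% of all genes were called higher against Het and 2.53% lower against WT. In naive 01-05 and at depletion 0 genes of either list were called by edgeR, with at most 5 of a list at an unadjusted p under 0.05.

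Of 31 ATF4 and integrated stress response genes 29 were tested, and a part of these was called higher in every comparison. In naive 01-05 there were 15 against Het (beside 1.48% of all genes) and 14 against WT (1.15%). In naive 05-11 there were 16 (7.68%) and under cuprizone 14 (8.16%). Depletion gave 5 against Het (0.217%) and 9 against WT (1.09%), and repopulation 18 (2.15%) and 20 (2.26%). The genes called lower numbered 3 in naive 05-11 (beside 6.07% of all genes) and 4 under cuprizone (5.83%), and 0 in the other comparisons. Atf5, a transcription factor of mitochondrial stress, had 265, 172, 184 and 183 CPM in KO at repopulation, against 10.4, 12.7, 10.99 and 14.7 CPM in Het and 10.5, 15.6, 14.6 and 12.9 CPM in WT. All KO libraries lay far above the rest, at a log2 fold change of 4.04 ± 0.38 against Het (adjusted p = 1.69e-10, edgeR) and 3.90 ± 0.38 against WT (adjusted p = 1.39e-10). In the other comparisons its log2 fold change was 2.49 to 3.43, with an adjusted p of at most 0.00132.

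Asns, the asparagine synthetase shown above with its CARE, had 31.6, 23.0, 28.6 and 22.0 CPM in KO at repopulation, against 3.40, 1.66, 1.51 and 0.856 CPM in Het and 1.46, 2.43, 1.105 and 0.835 CPM in WT. Its log2 fold change was 3.82 ± 0.60 against Het and 4.15 ± 0.61 against WT. Mthfd2, a mitochondrial folate enzyme, was higher in all 8 comparisons, by 1.28 to 2.71, and Trib3, a pseudokinase induced by ATF4, in all but cuprizone. Chac1, a glutathione-degrading enzyme, had 3.49, 9.17, 7.14 and 18.0 CPM in KO at repopulation, against 0 to 0.233 CPM in Het libraries, and 0 to 0.68 CPM in those of WT. These groups do not overlap in any of the 4 genes' values at repopulation. There KO lay above every Het library in 8.77% of all genes and above every WT library in 8.55%.

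Atf4 and Ddit3 (CHOP) respond to the ER stress sensor PERK and to other eIF2alpha kinases alike. Their KO effects differed between cuprizone and repopulation, by -1.53 ± 0.26 for Atf4 (adjusted p = 0.000268, edgeR) and -1.81 ± 0.29 for Ddit3 (adjusted p = 8.36e-05). This contrast was added after the values were seen, and 0.804% of all genes were called lower in it. Condition and library set cannot be told apart there. At repopulation Atf4 had 89.5, 151, 156 and 134.5 CPM in KO, against 67.9, 98.1, 74.6 and 128 CPM in Het and 68.4, 65.4, 112.5 and 90.5 CPM in WT, with log2 fold changes of 0.53 ± 0.19 against Het (adjusted p = 0.117, edgeR) and 0.66 ± 0.19 against WT (adjusted p = 0.0341). Ddit3 was higher there, by 0.77 ± 0.21 (adjusted p = 0.0221, edgeR) and 0.92 ± 0.21 (adjusted p = 0.00445). Under cuprizone Atf4 had 136 to 205 CPM in KO, against 240.3 to 430 CPM in Het, a log2 fold change of -1.004 ± 0.175 (adjusted p = 3.23e-05, edgeR), and Ddit3 was lower by -1.04 ± 0.20 (adjusted p = 9.79e-05). Ppp1r15a (GADD34), which reverses eIF2alpha phosphorylation, was lower by -2.56 ± 0.51 under cuprizone (adjusted p = 0.000228, edgeR) and -2.03 ± 0.46 in naive 05-11 (adjusted p = 0.00168), the conditions in which the dissociation stress genes were lower too. In naive 05-11 Ddit3 was lower as well, by -0.54 ± 0.17 (adjusted p = 0.0259, edgeR).

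Among the naive 01-05 KO libraries, KO 1 had 12.3 CPM of Atf5, near the WT range of 9.08 to 11.5 CPM, while KO 2 to 5 had 42.0, 73.3, 94.6 and 63.2 CPM. KO 1, with the least Atf5, had the most Pdia4 (228 CPM), and KO 4, with the most Atf5, had the least Pdia4 (167 CPM). For Hsp90b1, KO 1 (734 CPM) lay within the range of the other KO libraries. Mitochondrial chaperones and proteases, 13 genes, were higher in part: 3 against Het and 2 against WT at repopulation, led by Hspa9, the mitochondrial HSP70 (1.11 ± 0.14, adjusted p = 5.47e-08, and 1.07 ± 0.14, adjusted p = 1.06e-07, edgeR). In naive 05-11 6 were higher (7.68% of all genes) and under cuprizone 4 (8.16%), with 0 lower in any comparison.

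Across all 64 libraries, with each library set centred on its own mean, Calr had the highest Pearson correlation with the mean of the other 9 members (0.85), followed by Hspa5 (0.81), Manf (0.78) and Pdia4 (0.77). Herpud1 (0.41) was lower and Edem1 was negative (-0.44). The 5 other genes most like the members' mean were Glul (0.83), Nfam1 (0.82), Pdia3 (0.82), Pdcd4 (0.81) and Pak1 (0.80), of which only Pdia3 was on the ER lists. These values describe 64 libraries that share depth and genotype differences, and carry no test.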

How the data were processed

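RNA of sorted mouse brain microglia was measured in 64 libraries (12 label groups), made with a stranded total RNA kit from small RNA inputs per the labels' protocols. The authors deposited raw counts per gene and library. bcl2fastq 2.20, Trim Galore 0.6.7, STAR 2.6.1d and Salmon 1.5.2 with GRCm38 are named per the submitters' processing notes, and which of them gave the counts, the annotation and the strand setting are not given in the sources used here. Of 45708 rows, 18413 passed filterByExpr (minimum count 10, minimum total 15).

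Counts were tested in edgeR 4.0.16 (R 4.3.3) with glmQLFit and glmQLFTest, TMM scaling and 1 mean per group and library set, all 64 libraries in 1 fit, two-sided, with Benjamini-Hochberg adjustment over all genes tested and a threshold of 0.05. Library sets were read from the counts, not the labels: at most 1% of counts on Gm26917 and Yam1, or above that share a total over 15 M, under 5.5 M or between these. Naive sets hold numbers 01-05, 05-11 and 12-13. The SE is the absolute log2 fold change over the root of F. Values per library are TMM-scaled counts per megacount (CPM), and totals of 2.7 to 24.03 M counts set their precision. The 114 library pairs within a group and set all differed beyond sampling noise (lowest chi-square per degree of freedom 12.42). Sex was read from Y-linked genes.

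The members always, Uqcrfs1, 8 ATF4 pathway genes and up to 4 called genes per other list are named. The members and gene lists were chosen with earlier results of these data known. Alternatives were DESeq2 1.42.0, its size factors, no filter, other libraries in the fit, a sex term, a replicate block and each library left out. The procedure was tested on simulated data. Replicate numbers did not pair libraries across genotypes. Motifs were searched in RefSeq promoter windows (GRCm38.p6). The old Het libraries enter the fit but no comparison.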

Additional observations from a re-analysis of the deposited data

Results flagged for a closer look

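In 5 of 110 tests of single libraries against the rest of their group, over the 10 genes and the groups of 4 to 7 libraries, 1 library lay far from the others. Chance gives such a gap in about 1 in 20 groups. Dnajb9 had 132.3 CPM in WT depletion 1, where the others had 98.5 to 104 CPM, and Hsp90b1 had 1164 CPM in the same library, where the others had 878 to 899.5 CPM. Hsp90b1 had 1739 CPM in Het cuprizone 1, against 1282 to 1338 CPM in Het cuprizone 2 to 4. Hspa5 had 1765 CPM in Het naive 11, against 819 to 1143 CPM in the other Het libraries of naive 05-11. Xbp1 had 272.3 CPM in WT naive 5, against 168 to 174 CPM in WT naive 1 to 4. Across all genes WT naive 5 stands apart from these, together with Het naive 1 to 4 (231 to 249 CPM of Xbp1) and KO naive 5 (166 CPM). Whether this subset goes with the gap was not tested.

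In 3 genes the KO effect differed between conditions by an interaction test in edgeR (cuprizone minus repopulation, KO against Het), chosen after the values were seen. The difference was 0.951 for Sdf2l1, 0.529 for Pdia4 and -0.484 for Edem1 on the log2 scale.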

How the results depend on the processing

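Over 1960 values of single members under an alternative, 1794 kept their direction and side of the threshold, 86 were no longer called, 80 became called, and 0 changed sign while called. At repopulation Calr was called in all 15 alternatives of both comparisons, and under cuprizone Hspa5 in all 20. The numbers below are members called, with the cause of each change not tested.

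With DESeq2's size factors 5 members were called in naive 05-11 (2 with TMM), 6 under cuprizone (3), 2 in naive 12-13 (1) and 5 in cuprizone minus repopulation (3). The DESeq2 Wald test called 2 in naive 01-05 against WT (0 with edgeR), 5 in naive 05-11 (2), 6 under cuprizone (3), 4 at depletion against Het (2), 2 in naive 12-13 (1), 1 in cuprizone minus naive 05-11 (0), 2 in repopulation minus naive 01-05 (0) and 6 in cuprizone minus repopulation (3). Without a filter on low counts 0 were called at depletion against Het, 1 at depletion against WT, 2 in Het cuprizone against naive 05-11 (4 with it) and 1 in cuprizone minus repopulation. With only the libraries of the condition in the fit, 7 were called in naive 01-05 against Het (4), 1 in naive 01-05 against WT (0), 1 in naive 05-11 (2), 0 in both depletion comparisons (2 each) and 8 at repopulation against WT (5). With 1 mean per group and no library sets, 4 were called in naive libraries against WT, 0 in both depletion comparisons, 2 at repopulation against Het and 1 at repopulation against WT. A sex term left 2 in naive 01-05 against Het, KO 5 against Het 1-4 alone left 0, and cuprizone libraries over the non-coding RNA limit alone left 1.

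Replicate numbers are shared across genotypes, but deviations of same-numbered libraries were correlated at -0.133 to 0.21, with no comparison of 3 or more pairs above 0.1 throughout, so the numbers were not taken as pairs. With the replicate block, 0 members were called in naive 01-05 against Het, 1 in naive 05-11, 0 at depletion against Het, 5 at depletion against WT and 8 at repopulation against WT, and in naive 01-05 against WT 0, under cuprizone 2 and at repopulation against Het 6.

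Leaving out each library in turn gave 2 to 4 called members in naive 01-05 against Het, 0 against WT, 2 to 3 in naive 05-11, 3 to 5 under cuprizone, 0 to 1 at depletion against Het, 0 to 2 at depletion against WT, 5 in both repopulation comparisons, and 1 to 5 in cuprizone minus repopulation. Depth limits the cuprizone libraries most, where 3 counts correspond to 0.631 to 0.936 CPM.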

Other observations

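The 3 naive Het libraries from old mice enter no comparison above. They had 659.7 to 923 CPM of Hspa5, 1447 to 2158 CPM of Calr, 312 to 385 CPM of Pdia4, 1446 to 1731 CPM of Hsp90b1 and 75.1 to 95.2 CPM of Xbp1. Adult Het naive 12 and 13, the libraries nearest to them in depth, had 1115 and 1122 CPM of Hspa5, 2497 and 2527 CPM of Calr, 583 and 587 CPM of Pdia4, 1724 and 2339 CPM of Hsp90b1 and 118 and 129 CPM of Xbp1. Among the ATF4 pathway genes, old Het libraries had 4.51 to 26.7 CPM of Atf5 and 4.36 to 16.9 CPM of Asns, against 2.32 and 2.48 CPM of Atf5 and 0.619 and 2.11 CPM of Asns in adult Het naive 12 and 13. No test of age was made, and whether age or another property of these libraries goes with the values was not tested.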
